A study of Mus musculus with 9 samples.

Results

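The mitosis genes described here are 41 mouse genes whose proteins act at the kinetochore, on the spindle and in cytokinesis, together with the kinases, the transcription factor and the proliferation marks that go with them. They were taken by name from a given list after the Ensembl identifiers of the count files had been matched to mouse symbols. All 41 were found among the 54232 genes listed, and all 41 passed the filter on low counts, which left 15712 genes for testing.

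RNA was sequenced from 9 libraries labelled as mouse cortical neurons, wild type and CD1, an outbred stock. The sample titles give 3 groups of 3 repeats: a control, PA and PA + PS2. PA is a peptide amphiphile, a peptide with a fatty tail that assembles into fibres, and its library names carry IKVAV, a cell-binding sequence of laminin. The PA + PS2 libraries are named for IKVAV plus PEDOT-S-OH, a polymer of the conducting PEDOT family, and the controls for PDL, which the labels do not spell out. The treatment label reads peptide amphiphile for every library, controls included, so the groups follow the titles. No animal age, culture day, amount or exposure time is given, and nothing says that each repeat was a culture of its own. The p-values therefore reflect the spread among these libraries, and that spread may be technical.

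Mitosis separates copied chromosomes into daughter cells. Cyclin-dependent kinase and the aurora and polo-like kinases start it, kinetochores built on the centromeres attach each chromosome to spindle microtubules, and the spindle checkpoint holds the anaphase-promoting complex back until attachment is complete. The central spindle and a contractile ring then divide the cell. Postmitotic neurons have left the cell cycle, and in embryonic cortex these genes are used mainly by radial glia, intermediate progenitors, glial precursors and non-neural cells of the meninges and vessels. Their transcripts build up late in the cycle, and many of their promoters carry the cell cycle genes homology region (CHR), an element read by the MuvB complexes with B-Myb and FoxM1, and CCAAT boxes, which bind NF-Y.

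Promoter sequences were at hand in the RefSeq table of build GRCm38.p6 for 35 of the 41 members. Foxm1, Kif20a, Ccna2, Incenp, Tpx2 and Aurkb had none there. The 150 bases before the RefSeq start are shown for 8 members, 5′ to 3′ in the direction of the gene, because they span the range of what the promoters hold. CHR letters (TTTGAA, or TTCAAA on the other strand) and CCAAT letters (CCAAT, or ATTGG on the other strand) are in capitals, and no matches overlap in these stretches. The stretches lie at chr7:135716380-135716529 for Mki67 (minus strand), chr11:99024190-99024339 for Top2a (minus strand), chr10:69352913-69353062 for Cdk1 (minus strand), chr2:164769779-164769928 for Ube2c (plus strand), chr4:118437344-118437493 for Cdc20 (minus strand), chr9:122950931-122951080 for Kif15 (plus strand), chr13:100786487-100786636 for Ccnb1 (minus strand) and chr6:66535071-66535220 for Mad2l1 (plus strand).

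Mki67: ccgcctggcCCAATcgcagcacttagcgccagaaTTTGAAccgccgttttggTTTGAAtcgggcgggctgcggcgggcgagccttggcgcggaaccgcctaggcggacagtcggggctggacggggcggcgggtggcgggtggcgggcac
Top2a: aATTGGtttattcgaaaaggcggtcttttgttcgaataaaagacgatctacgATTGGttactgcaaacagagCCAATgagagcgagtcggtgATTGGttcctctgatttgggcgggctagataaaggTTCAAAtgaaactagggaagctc
Cdk1: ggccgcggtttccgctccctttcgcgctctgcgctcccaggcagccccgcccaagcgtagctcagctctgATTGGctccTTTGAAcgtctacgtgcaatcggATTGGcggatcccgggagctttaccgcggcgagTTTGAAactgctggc
Ube2c: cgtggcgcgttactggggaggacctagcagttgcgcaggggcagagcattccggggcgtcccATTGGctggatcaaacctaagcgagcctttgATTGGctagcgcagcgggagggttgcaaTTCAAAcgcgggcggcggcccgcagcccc
Cdc20: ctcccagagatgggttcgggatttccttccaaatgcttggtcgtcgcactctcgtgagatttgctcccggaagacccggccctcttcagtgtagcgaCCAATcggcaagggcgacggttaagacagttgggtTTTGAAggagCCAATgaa
Kif15: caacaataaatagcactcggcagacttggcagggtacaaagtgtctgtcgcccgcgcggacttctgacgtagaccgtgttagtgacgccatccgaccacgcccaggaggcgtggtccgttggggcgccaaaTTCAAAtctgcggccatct
Ccnb1: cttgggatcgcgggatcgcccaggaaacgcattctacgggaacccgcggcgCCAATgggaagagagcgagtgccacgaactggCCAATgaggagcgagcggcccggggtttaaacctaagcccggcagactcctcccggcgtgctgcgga
Mad2l1: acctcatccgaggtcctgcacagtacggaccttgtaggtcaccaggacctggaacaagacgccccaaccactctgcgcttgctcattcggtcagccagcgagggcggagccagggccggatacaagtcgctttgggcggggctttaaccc

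Mki67, Top2a, Cdk1, Ube2c and Cdc20 show both motifs in this stretch. Kif15 shows a CHR match alone, Ccnb1 shows a pair of CCAAT boxes alone, and Mad2l1 shows neither. Over the window of 300 bases, from 250 before to 50 after the start, a CHR match on either strand was present in 28 of 35 members (80.0%), compared with 11.4% of the 11198 tested genes with a promoter. At least 1 CCAAT match was present in 25 members (71.4%), compared with 38.5%, and both motifs together in 22 members (62.9%), compared with 4.78%. The 37 CHR matches lay close to the start, with a median position of 5 counted from it and 29 within 50 bases of it, while the 60 CCAAT matches lay further upstream, with a median position of −69. In Ube2c, matches at −186 and −183 on opposite strands overlap and count as separate. These are shares of exact letters in a window at the first start listed for each gene, and variants of the motifs were not searched. They are given as a description of genes that were chosen for their function.

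Total counts ran from 20746851 to 27237398 per library, and mitochondrial genes took 0.342% to 1.39% of them. PA repeat 2 had the most genes with a count, 24702 against 22064 to 23223 in the other libraries. The summed level of the mitosis genes was 310, 584 and 678 CPM (counts scaled to library size) in control repeats 1, 2 and 3, 402, 609 and 488 CPM in PA, and 233, 289 and 297 CPM in PA + PS2. The 3 PA + PS2 libraries were below every control and every PA library. The group means were 524 ± 191 CPM in the control, 500 ± 104 CPM in PA and 273 ± 35.2 CPM in PA + PS2 (SD, n = 3 each). Counts per member and library ran from 18 for Hmmr in PA + PS2 repeat 1, a counting error of 23.6%, to 1768 for Top2a in control repeat 3, a counting error of 2.38%. In bulk RNA, fewer dividing cells and less of these transcripts per cell cannot be told apart.

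**Figure D1:**
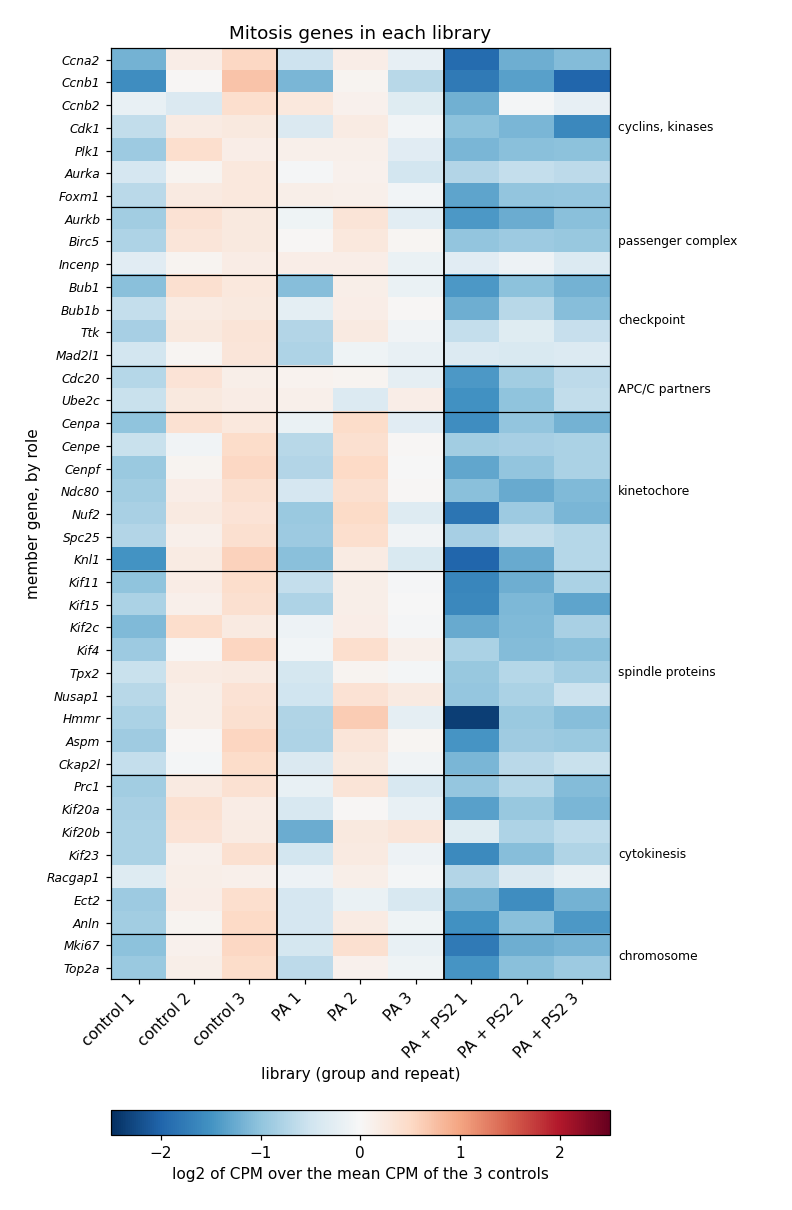
Level of each of the 41 mitosis genes (rows, grouped by role) in each of the 9 libraries (columns), as log2 of its CPM over the mean CPM of the 3 controls, with blue below and red above that mean. The PA + PS2 libraries are blue for all 41 genes, and control repeat 1 is blue as well.

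The controls differed among themselves. Relative to the control mean, the median log2 level of the 41 members was −0.82, 0.17 and 0.36 in control repeats 1, 2 and 3, and 40 of the 41 members were lower in control repeat 1 than in both other controls. The same median was −0.43, 0.20 and −0.10 in the PA libraries and −1.26, −0.98 and −0.93 in the PA + PS2 libraries. Repeat 1 was the lowest of its group for 31 members in PA and 32 in PA + PS2. All 41 members were below the control mean in each PA + PS2 library. These counts were not made over all tested genes, so they have no background share. The median coefficient of variation of the members was 38.3% in the control, 23.4% in PA and 17% in PA + PS2, compared with 12.6%, 16.8% and 9.12% over all tested genes. The members carried more spread between controls than the median tested gene did. The genes were not matched for level, so counting error at low counts may add to this difference.

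The comparison of PA + PS2 with the control asks how these genes stood on the peptide scaffold that carries the polymer. All 41 members had a lower fitted level in PA + PS2, with a median log2 fold change of −1.06, which is 47.8% of the control, while 50.2% of all tested genes were below 0 and their median was 0.00. The members ranged from −1.66 for Ccnb1 to −0.24 for Incenp. By the quasi-likelihood F test of edgeR, 0 of the 41 passed at an adjusted p under 0.05, compared with 0.0446% of all tested genes (7 genes), and the smallest adjusted p among members was 0.11, for Cdk1 and Foxm1. DESeq2 passed 17 members, compared with 1.51% of the genes to which it gave an adjusted p (232 genes). At an unadjusted p under 0.05, 35 of the 41 were lower, compared with 4.54% of all tested genes. The libraries of the groups did not overlap for 19 members, all lower, compared with 6.54% of all tested genes, and for 0 members higher, compared with 5.38%.

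Across all tested genes, deviations of libraries with the same repeat number correlated weakly in this comparison, at 0.183, 0.217 and 0.135. Across the members alone, the values were 0.0728, −0.201 and 0.148 in repeats 1, 2 and 3, so the members did not show this pairing clearly. A second edgeR fit with the repeat number as a block, called the block fit, stands beside the main test. In the block fit, 20 of the 41 members passed as lower, compared with 1.06% of all tested genes for lower levels and 1.17% for either direction. None passed as higher. Members said below to fall with the block are those that passed as lower in it. Where 2 values are given in parentheses, the adjusted p of the main test comes first and that of the block fit after it. The 20 were Ccna2, Cdk1, Foxm1, Aurkb, Bub1, Bub1b, Cenpa, Cenpf, Nuf2, Kif11, Kif15, Tpx2, Hmmr, Aspm, Kif20a, Kif23, Ect2, Anln, Mki67 and Top2a. Without control repeat 1, the fit with no block passed 24 members, compared with 1.08% of the genes then tested (175 genes). With all libraries it had passed 0 members and 7 genes. With the block, 0 members passed when repeat 2 or 3 of either the control or PA + PS2 was left out, and the smallest adjusted p of a member was then 0.0542 to 0.0704. When repeat 1 was left out of all groups, 20 members passed without the block, compared with 0.781% of the genes then tested, and 36 with it, compared with 4.16%. All 41 stayed below 0 in each of these fits.

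**Figure D2:**
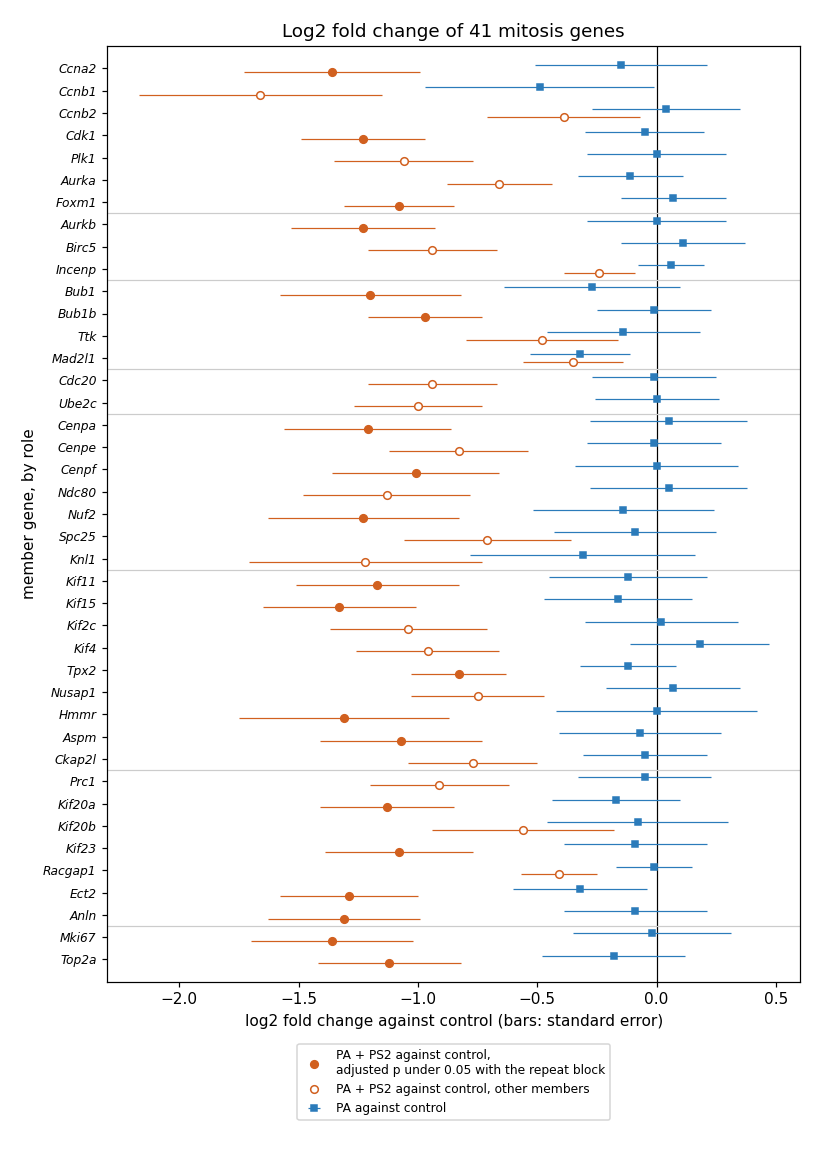
Fitted log2 fold change of each mitosis gene against the control (x axis), with its standard error, for PA + PS2 (circles) and PA (squares). All circles lie below 0, and the filled ones are the 20 members with an adjusted p under 0.05 in the edgeR fit with the repeat block. Fold changes and standard errors are those of the main edgeR fit without the block, in which no member passed.

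Top2a and Mki67 had the highest levels in CPM. Mki67 (chr7:135689784-135716361, minus strand), which encodes the Ki-67 protein that coats mitotic chromosomes, stood at 25.2, 55.3 and 73.8 CPM in control repeats 1, 2 and 3, at 38.1, 68.2 and 45.4 CPM in PA, and at 15.1, 22 and 22.9 CPM in PA + PS2. Every PA + PS2 library was below every other library. Its log2 fold change against the control was −1.36 ± 0.34 (edgeR adjusted p = 0.176, block fit 0.0149). Top2a (chr11:98992943-99024189, minus strand), the topoisomerase that untangles sister chromosomes, stood at 31.4, 65.6 and 81.4 CPM in the control, 37.8, 64.4 and 55.1 CPM in PA, and 21.4, 28.7 and 31.9 CPM in PA + PS2. PA + PS2 repeat 3 just reached the level of control repeat 1, so these groups overlapped, whereas PA + PS2 and PA did not. The log2 fold change of Top2a against the control was −1.12 ± 0.30 (edgeR adjusted p = 0.227, block fit 0.0112).

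Among the 7 cyclins, kinases and their regulator, the median log2 fold change in PA + PS2 was −1.08, and 3 fell with the repeat block. Cdk1 (chr10:69335146-69352938, minus strand), the kinase that drives entry into mitosis, had 6.41, 11.4 and 11.7 CPM in the control, 7.69, 11.4 and 9.36 CPM in PA, and 4.86, 4.47 and 3.24 CPM in PA + PS2. The PA + PS2 libraries lay below all others (log2 fold change −1.23 ± 0.26, edgeR adjusted p = 0.11, block fit 0.0345). Foxm1 (chr6:128362967-128376146, plus strand), the transcription factor of late cell cycle genes, had 10.1, 18.9 and 19.4 CPM in the control, 17.9, 17.6 and 15.3 CPM in PA, and 6.45, 8.13 and 8.23 CPM in PA + PS2. Its groups did not overlap either (−1.08 ± 0.23, edgeR adjusted p = 0.11, block fit 0.0289). Ccna2, cyclin A, had a mean of 6.94 ± 1.98 CPM in PA + PS2 against 17.9 ± 9.09 CPM in the control. Its groups overlapped (−1.36 ± 0.37, edgeR adjusted p = 0.23, block fit 0.0186).

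The B cyclins, which activate Cdk1, stood at opposite ends of this class. Ccnb1 had 1.11, 3.35 and 5.34 CPM in the control and 0.962, 1.27 and 0.832 CPM in PA + PS2, a log2 fold change of −1.66 ± 0.51 (edgeR adjusted p = 0.339, block fit 0.137). Ccnb2 had 3.49, 3.09 and 5.34 CPM in the control and 1.73, 3.85 and 3.45 CPM in PA + PS2, a log2 fold change of −0.39 ± 0.32 with overlapping groups. Both are among the members with the fewest counts, 462 for Ccnb1 and 785 for Ccnb2 over the 9 libraries, and each has a pseudogene named for it. Plk1, the polo-like kinase, stood at −1.06 ± 0.29 and Aurka, the kinase of spindle poles, at −0.66 ± 0.22 on the log2 scale. Neither passed with or without the block, and in both the PA + PS2 libraries were below all controls.

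The chromosomal passenger complex corrects wrong attachments and later moves to the central spindle. Its kinase Aurkb (chr11:69045647-69051664, plus strand) had 3.74, 8.78 and 8.10 CPM in the control, 6.39, 8.54 and 5.71 CPM in PA, and 2.55, 2.89 and 3.33 CPM in PA + PS2. The groups did not overlap (log2 fold change −1.23 ± 0.30, edgeR adjusted p = 0.176, block fit 0.0479). Birc5, or survivin, was lower in all 3 PA + PS2 libraries as well, at −0.94 ± 0.27 (edgeR adjusted p = 0.282, block fit 0.141). Incenp (chr19:9872296-9899551, minus strand), the scaffold of the complex, had 20.0, 25.4 and 27.5 CPM in the control, 27.1, 27.1 and 21.6 CPM in PA, and 19.9, 22.3 and 19.3 CPM in PA + PS2. These ranges overlapped, and the log2 fold change of −0.24 ± 0.15 was the smallest of all members (edgeR adjusted p = 1.0, block fit 0.752).

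The 4 spindle checkpoint genes had a median log2 fold change of −0.73. Bub1b (chr2:118598211-118641591, plus strand), a subunit of the complex that restrains Cdc20, had 6.61, 11.6 and 11.9 CPM in the control, 8.41, 11.2 and 10.2 CPM in PA, and 4.28, 6.21 and 4.78 CPM in PA + PS2. All PA + PS2 libraries were lower than all others (−0.97 ± 0.24, edgeR adjusted p = 0.177, block fit 0.0234). Bub1, the kinetochore kinase of the checkpoint, stood at −1.20 ± 0.38 with overlapping groups (edgeR adjusted p = 0.396, block fit 0.0479). Mad2l1 (chr6:66535390-66547220, plus strand), which binds Cdc20 directly, had 9.90, 14.1 and 16.8 CPM in the control, 7.96, 12.6 and 12 CPM in PA, and 10.8, 10.4 and 10.7 CPM in PA + PS2. Its PA + PS2 libraries lay between the controls, and its lowest library was PA repeat 1 (log2 fold change −0.35 ± 0.21 in PA + PS2 and −0.32 ± 0.21 in PA, edgeR adjusted p = 1.0 for both). Ttk, the kinase that starts checkpoint signalling, stood at −0.48 ± 0.32 and also overlapped.

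Cdc20 and Ube2c serve the anaphase-promoting complex as its activator and its ubiquitin-conjugating enzyme. Ube2c (chr2:164769898-164778822, plus strand) had 6.74, 11.7 and 11.2 CPM in the control, 10.7, 7.79 and 11 CPM in PA, and 3.46, 4.90 and 6.40 CPM in PA + PS2. The PA + PS2 libraries were below all others, with a log2 fold change of −1.0 ± 0.27 (edgeR adjusted p = 0.227, block fit 0.0576). Cdc20 (chr4:118432901-118437352, minus strand) had 6.49, 13.4 and 11.8 CPM in the control, 11.2, 11.1 and 9.13 CPM in PA, and 3.94, 5.78 and 6.69 CPM in PA + PS2. PA + PS2 repeat 3 was above control repeat 1, and neither test passed (−0.94 ± 0.27, edgeR adjusted p = 0.265, block fit 0.0845).

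The 7 genes of centromere and kinetochore had a median of −1.13 on the log2 scale, and Cenpa, Cenpf and Nuf2 fell with the block. Cenpa (chr5:30666777-30674830, plus strand), the centromeric histone, had 3.45, 9.09 and 8.29 CPM in the control, 6.21, 9.55 and 5.71 CPM in PA, and 2.36, 3.51 and 3.08 CPM in PA + PS2. PA + PS2 repeat 2 was marginally above control repeat 1, while all 3 PA + PS2 libraries were below PA (−1.21 ± 0.35 against the control, edgeR adjusted p = 0.265, block fit 0.0479). Ndc80 (chr17:71496100-71526857, minus strand), which grips the microtubule, had 1.52, 3.13 and 3.68 CPM in the control, 2.07, 3.69 and 2.82 CPM in PA, and 1.35, 1.16 and 1.29 CPM in PA + PS2. It had 487 counts over the 9 libraries. The groups did not overlap, and neither test passed (−1.13 ± 0.35, edgeR adjusted p = 0.355, block fit 0.185). Knl1 (chr2:119047119-119105501, plus strand), the outer kinetochore platform for Bub1, had 2.18, 7.0 and 9.12 CPM in the control, 2.97, 6.99 and 4.70 CPM in PA, and 1.54, 2.54 and 3.70 CPM in PA + PS2. Control repeat 1 sat inside the PA + PS2 range, and the standard error was wide (−1.22 ± 0.49, edgeR adjusted p = 0.678, block fit 0.0859).

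Nuf2 and Spc25 are partners of Ndc80 in the same complex. Nuf2 stood at −1.23 ± 0.40 on the log2 scale (edgeR adjusted p = 0.406, block fit 0.0299), and Spc25 at −0.71 ± 0.35 (edgeR adjusted p = 0.962, block fit 0.424). Cenpf, a large protein of the outer kinetochore, had a mean of 12.4 ± 2.11 CPM in PA + PS2 against 25 ± 11.4 CPM in the control. Cenpe, the kinetochore motor, had 6.69, 6.90 and 7.07 CPM in PA + PS2, all below the lowest control of 8.38 CPM, at −0.83 ± 0.29 (edgeR adjusted p = 0.484, block fit 0.14).

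The 9 spindle motors and microtubule proteins ranged from −1.33 to −0.75, and Kif11, Kif15, Tpx2, Hmmr and Aspm fell with the block. Kif15 (chr9:122951046-123018733, plus strand), a motor that helps hold spindle poles apart, had 5.01, 9.48 and 11.4 CPM in the control, 5.04, 9.51 and 8.61 CPM in PA, and 2.84, 3.97 and 3.45 CPM in PA + PS2. No PA + PS2 library reached any other library (−1.33 ± 0.32, edgeR adjusted p = 0.162, block fit 0.0137). Kif11, the motor that pushes the poles apart, had means of 6.80 ± 1.96 CPM in PA + PS2 and 15.4 ± 6.86 CPM in the control. Tpx2, which activates Aurka on the spindle, had the smallest standard error of the class, at −0.83 ± 0.20 (edgeR adjusted p = 0.172, block fit 0.018). Hmmr, a spindle assembly factor, and Aspm, a spindle pole protein linked to human microcephaly, stood at −1.31 ± 0.44 and −1.07 ± 0.34. The microtubule depolymerase Kif2c, the chromosome motor Kif4, the microtubule bundler Nusap1 and the spindle protein Ckap2l stood at −1.04, −0.96, −0.75 and −0.77, and none of these 4 passed with the block.

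Of the 7 genes of the central spindle and cytokinesis, Kif20a, Kif23, Ect2 and Anln fell with the block, and the class median was −1.08. Ect2 (chr3:27097222-27153878, minus strand), the exchange factor that switches on RhoA at the cell equator, had 5.51, 11.7 and 13.9 CPM in the control, 7.74, 9.30 and 7.85 CPM in PA, and 4.57, 3.55 and 4.57 CPM in PA + PS2. All PA + PS2 libraries were below the rest (−1.29 ± 0.29, edgeR adjusted p = 0.137, block fit 0.0484). Anln, or anillin, a scaffold of the contractile ring, stood at −1.31 ± 0.32 (edgeR adjusted p = 0.171, block fit 0.0337). Kif23 and Racgap1 form the centralspindlin complex. Kif23 had a mean of 4.12 ± 1.15 CPM in PA + PS2 against 8.78 ± 3.38 CPM in the control, a log2 fold change of −1.08 ± 0.31. Racgap1, the more abundant partner, had 24.9 ± 4.63 CPM against 33.1 ± 5.73 CPM, a log2 fold change of −0.41 ± 0.16 that did not pass (edgeR adjusted p = 0.689, block fit 0.114). The microtubule bundler Prc1 and the motors Kif20a and Kif20b stood at −0.91 ± 0.29, −1.13 ± 0.28 and −0.56 ± 0.38.

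For the comparison of PA with the control, which puts the peptide alone against the control, the 41 members had a median log2 fold change of −0.05, with 31 below 0, and all tested genes had −0.01, with 52.8% below 0. The range was −0.49 for Ccnb1 to 0.18 for Kif4. No member passed in the edgeR fit with or without the block or by DESeq2, as for all tested genes (0.00%), and 0 members had an unadjusted p under 0.05 in the lower direction, compared with 0.668%. The groups did not separate for any member in the lower direction, compared with 2.07% of all tested genes, or in the higher direction, compared with 1.97%. The sign of the median depended on the libraries, being −0.33 with all 41 members below 0 when control repeat 1 was left out, and 0.15 with 4 below 0 when control repeat 3 was left out. It was also above 0 without PA repeat 1 (0.06) or control repeat 2 (0.03). Without PA repeat 2 it was −0.27.

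Within repeats, PA over control gave median log2 ratios of CPM of 0.40, 0.00 and −0.47 in repeats 1, 2 and 3. The members above 0 numbered 35, 22 and 1, so the repeats pointed in different directions. PA + PS2 over control gave −0.41, −1.19 and −1.28, with 37, 40 and 41 members below 0. The exceptions were Ttk, Mad2l1, Kif4 and Kif20b in repeat 1 and Ccnb2 in repeat 2. PA + PS2 over PA gave −0.82, −1.18 and −0.79, with 37, 41 and 40 below 0. In both comparisons with PA + PS2, 36 of the 41 members were lower in all 3 repeats. Over all tested genes, the median ratio lay between −0.02 and 0.02 in every pair of libraries. How many of all tested genes were lower in all 3 repeats was not counted, so the 36 have no background share. These 3 sets of ratios share libraries, so they are not independent of each other.

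**Figure D3:**
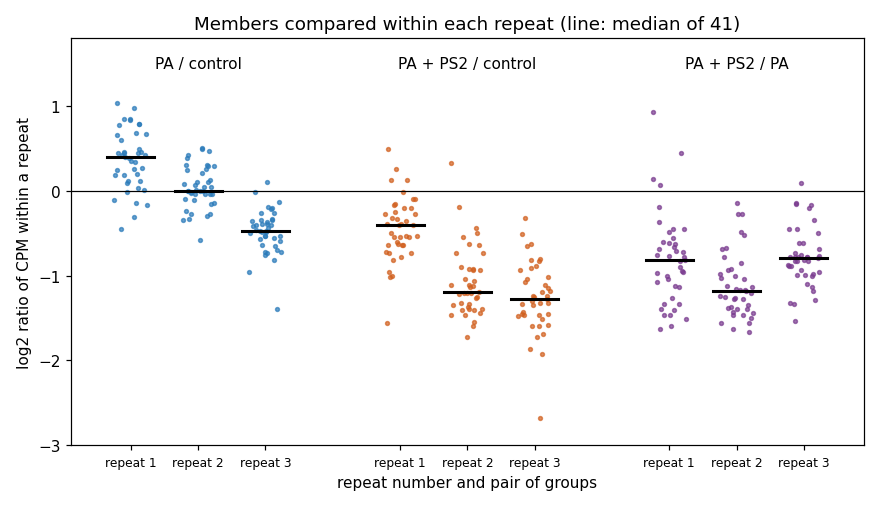
Log2 ratio of CPM between libraries of the same repeat number (y axis) for each of the 41 mitosis genes (points), by pair of groups and repeat, with the median as a line. The PA over control medians run from 0.40 to −0.47, and the medians of PA + PS2 lie below 0 in every repeat.

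Set directly against PA, the PA + PS2 group asks about the polymer on the same peptide. All 41 members were below 0, with a median of −0.99, or 50.4% of PA, from −1.34 for Mki67 to −0.03 for Mad2l1, while 48.6% of all tested genes were below 0. The edgeR test without the block passed 0 members, and 0.00% of all tested genes, with a smallest adjusted p of 0.237 for a member, and DESeq2 passed 11 members, compared with 0.939% of the genes to which it gave an adjusted p (136 genes). At an unadjusted p under 0.05, 34 members were lower, compared with 4.58% of all tested genes. The libraries did not overlap for 32 members, all lower, compared with 6.32% of all tested genes. The 9 that overlapped were Ccnb2, Incenp, Bub1, Ttk, Mad2l1, Nuf2, Spc25, Knl1 and Kif20b. Without control repeat 1, a library of neither group, Foxm1, Aurkb and Mki67 passed, compared with 0.229% of the genes then tested (37 genes). PA + PS2 libraries are common to this comparison and the one with the control, so the values of the pair do not count as separate evidence.

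The members moved together across the libraries. Pearson's r of log2 CPM between members over the 9 libraries had a median of 0.896 across 820 pairs, and 639 pairs were above 0.8. These points share their library, the group difference and the low control repeat 1, so r is a description. Mki67 had the highest mean r with the other members (0.917), and Ccnb2, Mad2l1 and Kif20b the lowest (0.534, 0.619 and 0.622). Neither the control level nor exon length ordered the fold changes closely, with Spearman's rho across members of 0.108 and −0.265.

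Levels were also set per kilobase of exon (RPKM), since CPM cannot be compared between genes of different length. In the control, Top2a was highest at 6.60 ± 2.84 RPKM, followed by Cdc20 at 5.66 ± 1.94 and Incenp at 5.61 ± 0.896 RPKM. Knl1 and Ndc80 were lowest, at 0.714 ± 0.416 and 0.428 ± 0.173 RPKM, around a median member of 1.69 RPKM. All 40 neighbours in this order overlapped in their ranges, so the order is loose. In PA + PS2 the median member was at 0.849 RPKM, and Incenp led at 4.73 ± 0.363 RPKM, clear of the range of the next gene, Racgap1, at 3.52 RPKM.

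Other genes of the cell cycle, from lists that do not hold the members, are given for PA + PS2 against the control by counts and medians. None of these genes passed the edgeR test without the block, and 1.06% of all tested genes were lower with it. The 28 tested genes of other spindle, motor and cytokinesis proteins came nearest to the members, with a median log2 fold change of −0.83, 27 below 0 and 4 lower with the block. They included Iqgap3, a scaffold of cytokinesis, at −1.51 ± 0.30 (edgeR adjusted p = 0.0229 with the block), and the motor Kif18b at −1.43 ± 0.34 (0.0186 with the block). Dlgap5, a spindle protein, stood at −1.20 ± 0.28, and Ckap5, a microtubule polymerase, was at 0.03 ± 0.13. The 38 other kinetochore and centromere genes had a median of −0.31, with 32 below 0 and Sgo1, the protector of centromeric cohesin, lower with the block at −1.64 ± 0.49 (edgeR adjusted p = 0.0435). Spc24, the remaining subunit of the Ndc80 complex, stood at −1.15 ± 0.32, the passenger subunit Cdca8 at −0.67 ± 0.20 and the checkpoint protein Zw10 at 0.18 ± 0.14.

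The 20 other regulators of mitotic entry and exit had a median of −0.43, with 17 below 0. Cdca2, a phosphatase-targeting protein of chromosomes, passed with the block at −1.33 ± 0.27 (edgeR adjusted p = 0.0296), while separase (Espl1) at −0.88 ± 0.19 and B-Myb (Mybl2) at −0.97 ± 0.29 did not, and Lin52 of the MuvB complex stood at 0.16 ± 0.22. The 31 DNA replication genes had a median of −0.35, with 27 below 0 and 4 lower with the block. Mcm5 of the replicative helicase stood at −0.75 ± 0.18, Mcm10 at −1.03 ± 0.25 and Uhrf1, which maintains DNA methylation, at −0.97 ± 0.25, and Cdc45 was at 0.23 ± 0.19. The 14 core subunits of the anaphase-promoting complex had a median of 0.04, with 4 below 0, and Anapc13, Anapc11 and Anapc7 stood at 0.19 ± 0.12, 0.17 ± 0.12 and 0.10 ± 0.10. The 17 condensin and cohesin genes had a median of −0.06 and 0 lower with the block. Their spread was wide, from Ncapg at −1.42 ± 0.55, Ncaph at −0.83 ± 0.25 and Smc4 at −0.62 ± 0.33, all of condensin, to Smc3 of cohesin at 0.09 ± 0.15. The 14 tested cell cycle inhibitors and exit genes had a median of −0.03 and 0 lower with the block, among them Cdkn2c at −1.38 ± 0.34 (edgeR adjusted p = 0.0551 with the block), Btg2 at −0.71 ± 0.18, Rbl1 at −0.74 ± 0.40 and Btg1 at 0.11 ± 0.11. Of 11 histone genes 4 were tested, with a median of −0.05, and H2afx, H2afv and Hist1h1c stood at −0.18 ± 0.12, −0.06 ± 0.11 and 0.28 ± 0.35. In PA against the control, 0 genes of these lists passed, and their medians ran from −0.12 to 0.05.

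**Figure D4:**
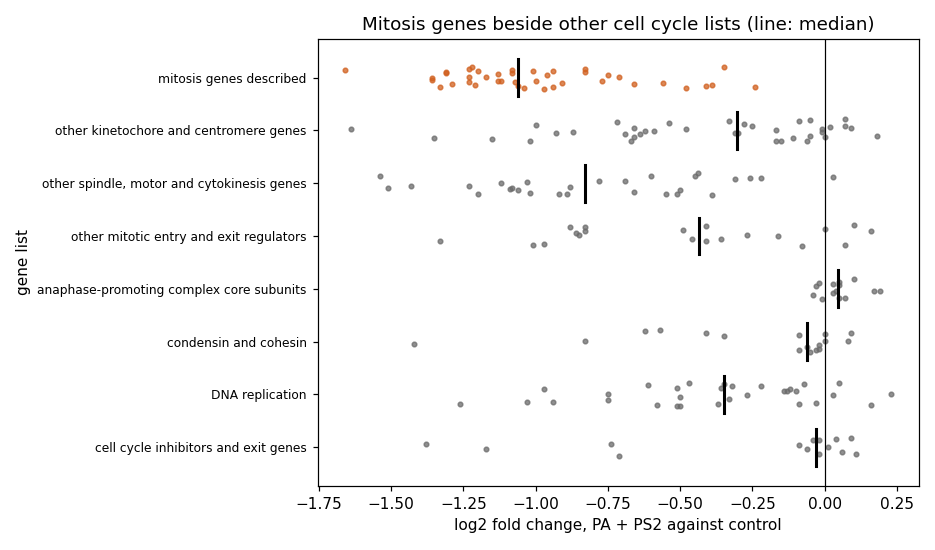
Fitted log2 fold change of PA + PS2 against the control (x axis) for the 41 mitosis genes (orange) and the genes of 7 other cell cycle lists (grey), 1 point per tested gene, with the median of each list as a line. The mitosis genes have a median of −1.06 and the core subunits of the anaphase-promoting complex 0.04.

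CHR matches were counted in these lists too. They were present in 56.5% of the promoters of other spindle, motor and cytokinesis genes, 46.7% of those of entry and exit regulators and 36.4% of those of other kinetochore genes. The share was 38.5% for condensin and cohesin, 23.1% for DNA replication, and 15.4% each for the anaphase-promoting complex core and for inhibitors and exit genes, compared with 11.4% of all tested genes. The order of these shares matched that of the lists' median fold changes only in part. Spindle genes and then entry and exit regulators led in both, and the complex core and the inhibitors came last. Condensin and cohesin, with a median of −0.06, had a higher share than other kinetochore genes (−0.31) and DNA replication (−0.35). A link between share and fold change was not tested. Among the members, the 28 with a CHR match had a median log2 fold change of −1.05 in PA + PS2 and the 7 without had −0.94. The latter were Birc5, Bub1, Ccnb1, Cenpe, Mad2l1, Nuf2 and Nusap1, which include Ccnb1 and Mad2l1, the ends of the range among the 35 members with a promoter. The 18 members with at least 2 CCAAT boxes and the 17 with fewer both had a median of −1.04.

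Markers of cell types were read in the same libraries, because dividing cells in such cultures are not neurons. In PA + PS2 against the control, no tested marker passed the edgeR test without the block. With the block, 1.06% of all tested genes were lower, which is the background for the counts below. The 12 neuronal markers, Map2, Tubb3 and Stmn2 among the most abundant, summed to 7260 to 7920 CPM in the control. The sums were 7070 to 8410 CPM in PA and 7740 to 8480 CPM in PA + PS2. Their median log2 fold change in PA + PS2 against the control was 0.11. Neuronal transcripts were thus abundant in every library. The 11 markers of radial glia and intermediate progenitors summed to 233 to 465 CPM in the control, 375 to 425 CPM in PA and 224 to 285 CPM in PA + PS2, with control repeat 1 the lowest control as for the mitosis genes. Of these 11, 10 were below 0 in PA + PS2 against the control, but not evenly. Sox2 and Insm1 were near 0, at −0.08 ± 0.11 and −0.03 ± 0.16, and Hes5 was above it, at 0.44 ± 0.48. Nes, the progenitor filament nestin, stood at −0.91 ± 0.21 and alone passed with the block (edgeR adjusted p = 0.161, block fit 0.0253). The 7 markers of oligodendrocyte precursors summed to 29.5 to 58.1 CPM in the control and 18.6 to 21.2 CPM in PA + PS2. All 7 were below 0 and 3 were lower with the block (Pdgfra, Olig1 and Olig2), but the list was uneven. Gpr17, Lhfpl3 and Sox10 stood at −0.07 ± 0.31, −0.16 ± 0.20 and −0.33 ± 0.36. Against PA, Gpr17 and Sox10 were above 0, at 0.42 and 0.10. Cspg4, at −1.43 ± 0.37, is also counted among the mural markers. The 10 markers of fibroblasts, meninges and mural cells, of which 9 were tested and 4 were lower with the block (Acta2, Pdgfrb, Tagln and Col1a1), summed to 137 to 199 CPM in the control, 92.7 to 164 CPM in PA and 12.9 to 58.2 CPM in PA + PS2. Astrocyte markers summed to 138 to 193 CPM in the control, 157 to 189 CPM in PA and 139 to 162 CPM in PA + PS2, most of it Slc1a2. The others differed in direction, and none of the 6 tested passed with or without the block. Against the control, Gja1 stood at −1.06 ± 0.26, Aldh1l1 at −0.84 ± 0.33 and Gfap at 1.76 ± 0.69 in PA + PS2. In PA, the median of the 6 tested was 0.58, with Aldoc at 1.0 ± 0.40 and Gfap at 1.55 ± 0.69. Gfap was close to the limit of detection, with 0.0822, 0.869 and 1.52 CPM in control repeats 1, 2 and 3. Microglial markers, at 4.79 to 7.22 CPM in the control and 3.01 to 4.03 CPM in PA + PS2, were low, with P2ry12 at 0 in 7 libraries. Endothelial markers summed to 3.83 to 7.64 CPM and 1.58 to 3.32 CPM, most of the control sum being Kdr, and Cldn5 was at 0 in 8 libraries. Kdr had 4.5 ± 2.02 CPM in the control and 1.5 ± 0.582 CPM in PA + PS2. Its log2 fold change was −1.58 ± 0.37 (edgeR adjusted p = 0.161, block fit 0.0952), while Pecam1, at under 1 CPM on average, stood at 0.48 ± 0.55. The part of these cell types in the lower mitosis genes was not tested.

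Some members share their place in the genome with another gene. Ccna2 overlaps Exosc9, Cdc20 overlaps Elovl1, Kif4 overlaps Pdzd11, Nusap1 overlaps Oip5, Prc1 overlaps Rccd1 and Kif20a overlaps Cdc23, each on the opposite strand. The strand setting of the counting is not given in the sources used here, so reads of these pairs may not be told apart, and the values of these 6 members carry that limit. Kif4 has a pseudogene named for it, as the B cyclins do, and reads may be split between such copies.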

How the data were processed

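Libraries were grouped by their titles. The authors deposited 1 table per library of raw counts for each Ensembl gene, as whole numbers that were not normalized. The submitters' processing notes list STAR 2.7.5, HTSeq 2.0.2, cutadapt 4.2, mm10 and DESeq2 1.14.1, with no roles. The annotation release and strand setting are not given in the sources used here. Symbols and coordinates came from GENCODE M21 of the same build (54079 of 54232 identifiers matched), and promoters from RefSeq (GRCm38.p6).

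All 9 libraries were fitted at once with edgeR 4.0.16 in R 4.3.3 (quasi-likelihood F test, 2-sided, 6 residual degrees of freedom). The filterByExpr filter (count of 10, total of 15) kept 99.9% of the counts, and library sizes were scaled by TMM. P-values were adjusted by Benjamini and Hochberg over 15712 genes, and an adjusted p under 0.05 passed. Errors of log2 fold changes are standard errors, derived from the F statistic. The common coefficient of biological variation was 16.6%, and 11.6% with the repeat block. Counting errors do not cover library preparation.

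The groups share repeat numbers 1 to 3, and the labels do not say what they mark. Deviations from the group means of libraries with the same number were correlated across all tested genes. The values were 0.422, 0.365 and 0.28 for PA and control, and 0.183, 0.217 and 0.135 for PA + PS2 and control. Across the members alone they were 0.413, 0.0727 and 0.0745, and 0.0728, −0.201 and 0.148. Because of the values over all tested genes, the fit with the block (4 residual degrees of freedom) is given beside these results. Alternatives were the block, DESeq2 1.42.0, DESeq2 size factors, other filters, 2 groups alone and each library left out. Libraries left out of the fit with the block were added after seeing the data.

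Members, roles and lists were chosen with earlier results of these data known. Values in every library are given for the member with the smallest p in each role class in PA + PS2 against control, for the 2 highest and 2 lowest length-scaled control levels, for the 2 with the smallest change and for Mki67, Top2a and Cdk1. Of each other cell cycle list, up to 3 genes with the smallest p and the 1 with the highest log2 fold change are named. The library values of Ccnb1, Ccnb2 and Cenpe, and the marker genes named, were chosen after their values were seen.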

Additional observations from a re-analysis of the deposited data

How the results depend on the processing

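The median log2 fold change of the members moved by less than the spread between libraries in every setting, from −1.36 to −0.83 for PA + PS2 against the control, −1.11 to −0.79 for PA + PS2 against PA and −0.33 to 0.15 for PA against the control when libraries were left out. The counts of genes passing did move. For PA + PS2 against the control, members passing went from 0 to 20 with the replicate block, 17 with DESeq2, 31 with no filter and 20 with repeat 1 left out of all groups, and from 0 to 24 with each library left out. All genes passing went from 7 to 184 with the block, 232 with DESeq2, 17 with DESeq2 size factors, 365 with no filter, 28 with the 2 groups alone and 125 with repeat 1 left out of all groups, and from 0 to 175 with each library left out. With the block, leaving out each library gave 0 to 28 members and 12 to 433 genes. Leaving repeat 1 out of all groups gave 36 members and 665 genes.

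For PA + PS2 against PA, the same-number correlations were 0.0147, 0.292 and 0.302, so the numbers do not pair every repeat. The block passed 8 members (Ccna2, Foxm1, Bub1b, Kif11, Kif15, Aspm, Mki67 and Top2a; 0.337% of all tested genes were lower) and 57 genes in all. DESeq2 passed 11 members and 136 genes, no filter 29 members and 330 genes, repeat 1 left out of all groups 3 genes, and each library left out 0 to 3 members and 0 to 37 genes. With the block, each library left out gave 0 to 26 members and 1 to 226 genes. The counts were 21 members and 120 genes without control repeat 1, and 15 members and 140 genes without control repeat 3. Repeat 1 left out of all groups gave 31 members and 409 genes. For PA against the control, 23 genes and 0 members passed with no filter. The cause of these shifts was not tested. The unfiltered fit tested 31611 genes, compared with 15712, and the scaling and 1 CPM filter alternatives passed 0 members in each comparison. The block changed no other call of a member. At about 20 counts, as for Ccnb1 in PA + PS2, counting error alone is 22.4%, which limits such members.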

Other observations

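Ratios of CPM between partners of a complex were chosen after the values had been seen and are given without a test. Incenp over Aurkb was 5.34, 2.89 and 3.39 in control repeats 1, 2 and 3, and 7.79, 7.71 and 5.81 in PA + PS2. Racgap1 over Kif23 was 5.24, 3.78 and 3.12 in the control and 6.79, 6.17 and 5.54 in PA + PS2. Mad2l1 over Bub1b was 1.5, 1.22 and 1.41 in the control and 2.53, 1.68 and 2.23 in PA + PS2. In these 3 pairs the partner with the smaller change, put first, made up more of the pair in each PA + PS2 library than in any control. A higher ratio on average follows from the fold changes themselves. Of the other pairs computed, Incenp over Birc5 and Spc25 over Nuf2 were also apart. Ndc80 over Nuf2, Birc5 over Aurkb, Tpx2 over Aurka and each B cyclin over Cdk1 overlapped between the groups. Ccnb2 over Ccnb1, at 3.15, 0.922 and 1.00 in the control and 1.8, 3.03 and 4.15 in PA + PS2, overlapped between the groups.

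CCAAT boxes 31 to 33 bases apart, a spacing chosen after the promoters had been read, were present in 7 of 35 member promoters (20.0%) and in 1.79% of the promoters of all tested genes. Cdk1, Ube2c and Ccnb1 among the printed promoters hold such a pair.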
